A study of Mus musculus with 5 samples.

Results

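The genes described here are 39 genes of the cell cycle, chosen by name as carriers of DNA replication, of the cyclin clock, of mitosis and of the spindle checkpoint. They were measured in 3 pools of Lhx8 null ovaries (replicates 1, 2 and 3) and 2 pools of wild type ovaries (replicates 2 and 3). Each pool held 50 ovaries of female mice at postnatal day 0.5 on a hybrid C57/BL6/129SVEV background, went onto 1 oligonucleotide array, and stands for at least 25 animals. Lhx8 is a LIM homeobox gene of oocytes, and the question is what differs in newborn ovaries that lack it; the design of the null allele is not given in the sources used here. Of the 39 genes, 38 had at least 1 probe set with a single gene symbol, 93 probe sets in all, of the 45037 that are no control; Ccnb1 was not analysed here. Each gene is represented by its brightest probe set, as were all 18193 genes, and 36 of the 38 passed the filter that left out the dimmest 40% of genes by their mean over all arrays, while Tyms and Aurkc did not.

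A dividing cell licenses its replication origins with the MCM helicase in G1, copies its DNA in S phase with the help of PCNA and nucleotide-making enzymes, and is driven through the phases by cyclins bound to cyclin-dependent kinases. In mitosis the Aurora and Polo-like kinases and motor proteins build the spindle, the spindle checkpoint proteins hold back the anaphase-promoting complex until all chromosomes are attached, and that ubiquitin ligase, with its activator CDC20 and its E2 enzyme UBE2C, then triggers anaphase. In the newborn mouse ovary oocytes rest in meiotic prophase and do not replicate, while somatic cells still divide, and several checkpoint proteins also serve the meiotic spindle.

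Signals below are the deposited intensities, scaled by the authors to a trimmed mean of 500 on every array. Differences are null minus wild type on the quantile normalised log2(signal + 16) scale, tested with limma over 10916 genes with a threshold of 0.05 on the adjusted p. Lhx8 had signals of 333, 159 and 347 on the null arrays, against 6450.1 and 5223 on the wild type arrays, which bears out the labels. Pairs of null arrays correlated at 0.960 to 0.974 across probe sets, the wild type pair at 0.970, and pairs across groups at 0.905 to 0.931. Null arrays had 2.12 times the wild type signal of the BioC hybridisation control and 1.90 times that of Cre, 18S rRNA probe sets read 303 to 570 on null and 207 to 208 on wild type arrays, and the 3' to 5' ratio of Actb was 1.48 to 1.69 on null and 1.39 to 1.43 on wild type arrays; their part in the results was not tested. Signals of different genes are not comparable with each other, and 3 arrays against 2 limit the precision of every value.

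The cell cycle genes did not move one way. In null ovaries 13 of the 36 tested genes were higher (36.1%, against 25.6% of all genes tested), 6 were lower (16.7%, against 22.3% of all genes) and 17 did not pass. Together 19, or 52.8%, passed, close to the 47.8% of all genes that did. Changes of at least 2-fold were found in 5 genes upward (8.88% of all genes) and in 3 downward (8.13% of all genes). For 24 of the 36 genes (66.7%) no null array fell within the range of the wild type arrays or the reverse, against 67.8% of all genes. The median difference of the 36 genes was 0.27, beside 0.04 over all genes tested. With each array centred on its median these medians became 0.00 and -0.18, so small differences here depend on the scaling. In that setting 10 of the 36 cell cycle genes were higher and 8 lower, where 15.8% of all genes were higher and 31.3% lower. Together 50% of the cell cycle genes passed there, against 47.1% of all genes.

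**Figure D1:**
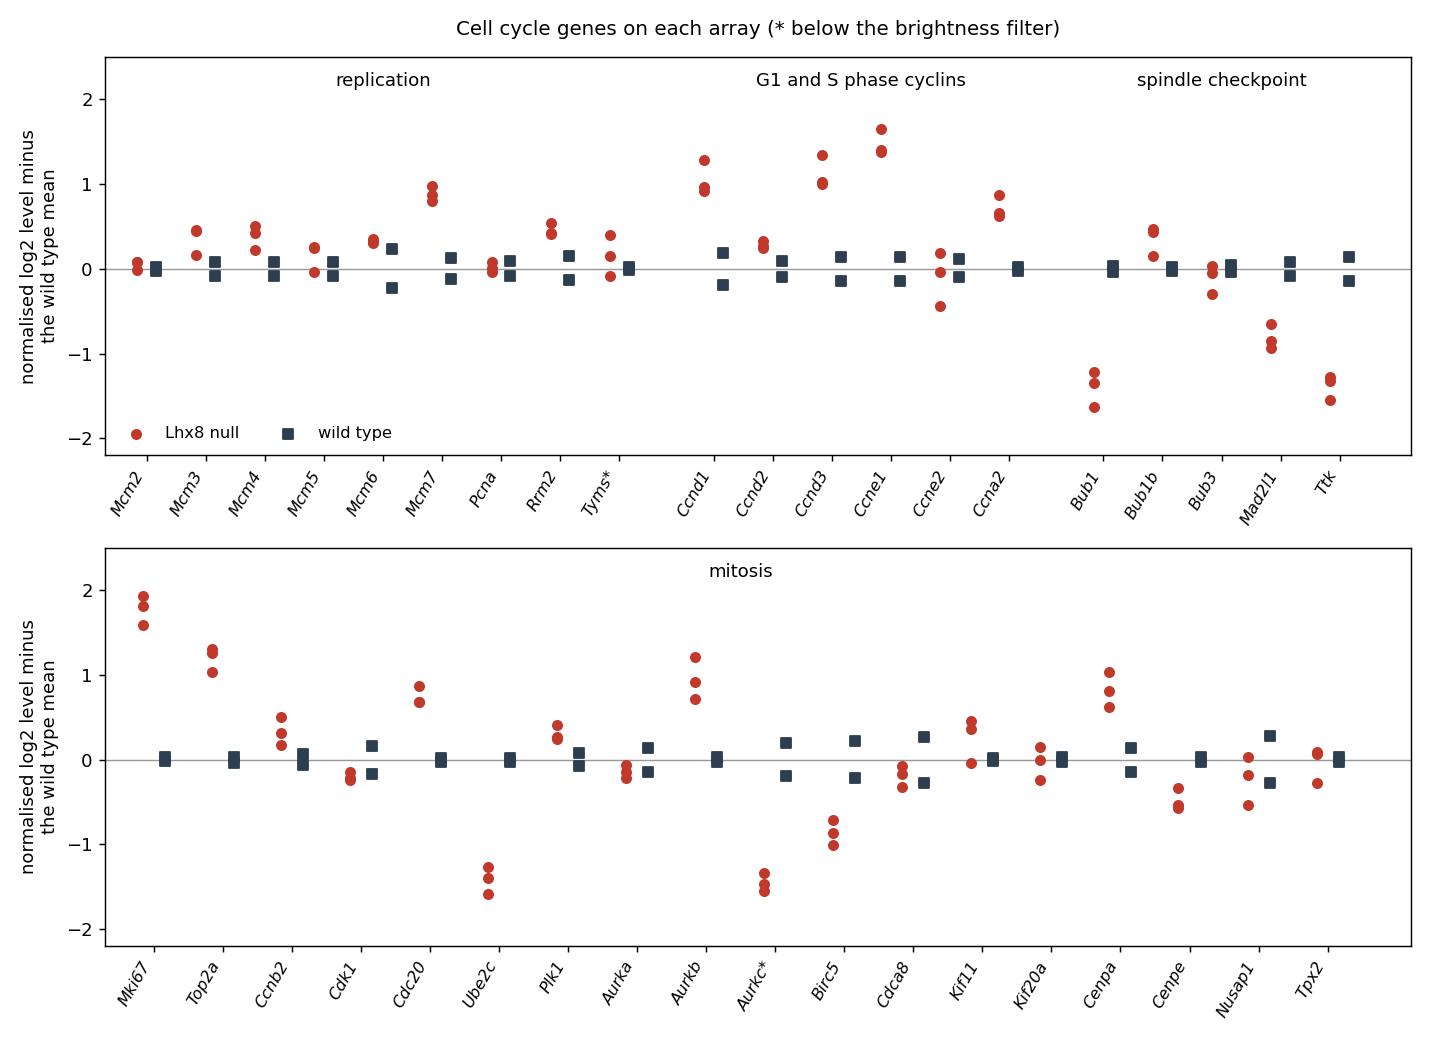
Normalised log2 level of each cell cycle gene on every array, minus its mean on the wild type arrays, with the 3 null arrays as red circles left of the 2 wild type arrays as dark squares. Mki67, Top2a, Ccne1 and Ccnd3 lie above wild type on all 3 null arrays, and Ube2c, Bub1, Ttk, Mad2l1 and Birc5 lie below it on all 3; genes marked with an asterisk were too dim to be tested.

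Upstream sequence is shown for the 5 mitotic and checkpoint genes that changed by at least 2-fold, so that promoters of genes that went in opposite directions can be read side by side. Each window holds the 250 bases before the RefSeq start of the gene (GRCm38.p6), 5′ to 3′ on the gene's strand. Capitals mark, on either strand, the CCAAT box, the cell cycle homology region word TTTGAA, and the E2F site in any of 3 spellings, namely TTCCCGC, the variant TTGGCGC, and the variant TTCGCGC. The second E2F spelling can overlap a CCAAT box on the other strand, and the palindrome of a CCAAT box with its complement counts as 2. Mki67 and Top2a rose in null ovaries, and Ube2c, Bub1 and Ttk fell.
Mki67 (chr7:135716380-135716629, minus strand): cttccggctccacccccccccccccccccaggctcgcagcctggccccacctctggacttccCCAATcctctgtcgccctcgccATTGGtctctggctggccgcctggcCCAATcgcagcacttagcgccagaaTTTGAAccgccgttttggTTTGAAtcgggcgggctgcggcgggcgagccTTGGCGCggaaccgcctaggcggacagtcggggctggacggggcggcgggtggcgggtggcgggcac
Top2a (chr11:99024190-99024439, minus strand): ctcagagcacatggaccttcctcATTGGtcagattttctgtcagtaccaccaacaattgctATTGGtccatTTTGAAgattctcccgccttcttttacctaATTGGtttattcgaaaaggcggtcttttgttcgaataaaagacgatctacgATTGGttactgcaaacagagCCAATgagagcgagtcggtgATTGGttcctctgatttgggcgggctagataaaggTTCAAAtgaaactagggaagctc
Ube2c (chr2:164769679-164769928, plus strand): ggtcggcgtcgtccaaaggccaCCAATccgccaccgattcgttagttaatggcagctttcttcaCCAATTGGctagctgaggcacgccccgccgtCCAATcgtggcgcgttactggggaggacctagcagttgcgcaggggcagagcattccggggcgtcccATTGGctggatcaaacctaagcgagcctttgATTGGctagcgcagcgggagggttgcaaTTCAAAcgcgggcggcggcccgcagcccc
Bub1 (chr2:127831860-127832109, minus strand): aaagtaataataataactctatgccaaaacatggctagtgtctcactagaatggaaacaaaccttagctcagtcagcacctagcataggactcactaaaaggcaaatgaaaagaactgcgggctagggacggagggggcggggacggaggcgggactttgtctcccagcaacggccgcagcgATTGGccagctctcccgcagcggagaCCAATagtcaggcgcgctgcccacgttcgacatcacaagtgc
Ttk (chr9:83834439-83834688, plus strand): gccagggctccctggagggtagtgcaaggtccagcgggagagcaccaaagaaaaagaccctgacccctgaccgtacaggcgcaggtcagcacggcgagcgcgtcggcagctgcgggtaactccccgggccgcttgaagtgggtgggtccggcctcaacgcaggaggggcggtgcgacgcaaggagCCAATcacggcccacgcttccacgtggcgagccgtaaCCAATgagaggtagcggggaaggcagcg

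A CCAAT box was present in all 5 of these windows, with 3 in Mki67, 6 in Top2a, 6 in Ube2c, 2 in Bub1 and 2 in Ttk. The TTTGAA word occurred 2 times in Mki67, 2 times in Top2a and 1 time in Ube2c, and no match lies in the windows of Bub1 and Ttk. Only Mki67 of the 5 held an E2F word. The promoter table had 33 windows for 30 of the cell cycle genes. A CCAAT box was found in 26 of these 33 (78.8%) and in 33.8% of all 32851 windows of that length, the TTTGAA word in 10 (30.3%, against 16% of all windows) and an E2F word in 6 (18.2%, against 6.69%). Windows of genes that rose held a CCAAT box in 8 of 10 cases, those of genes that fell in 4 of 6 and those of genes that did not pass in 14 of 15, and the other windows were those of Tyms and Aurkc, without one. The TTTGAA word was in 3 of 10 windows of genes that rose, 1 of 6 of genes that fell and 6 of 15 of genes that did not pass. An E2F word was in 3 of 10, 0 of 6 and 3 of 15. Those of genes that rose were in windows of Mki67 and Mcm7 only. Mcm7, Ccnd3 and Bub3 have more than 1 window each, so windows are not separate genes. Mcm4, Ccnd1, Ccnd2, Ccna2 and Aurkb rose but have no window here, while every tested gene that fell has 1. The tallies by direction thus cover unlike shares of the genes.

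Mki67 and Top2a rose. Mki67, which encodes the Ki-67 protein that coats mitotic chromosomes and is absent from resting cells, had signals of 6187, 6032 and 5082 on the null arrays, against 1723 and 1677 on the wild type arrays. Every null array lay far above both wild type arrays. Its mean was 5767 ± 598 (SD, n = 3) in null ovaries and 1700 ± 32.5 (SD, n = 2) in wild type ovaries, and it rose by 1.77 in log2 units, or 3.42-fold (SE 0.13, adjusted p = 1.62e-05). Top2a, the topoisomerase that untangles replicated DNA, had 4417, 4929 and 4015 on the null arrays, against 2028 and 1932 on the wild type arrays. The groups lay well apart here too, and Top2a rose by 1.20 (SE 0.12, adjusted p = 9.5e-05), with 1.28 at a second probe set and -0.18 at another below the brightness cutoff. Both calls held in all 14 alternative settings, between 1.50 and 1.87 for Mki67 and between 0.77 and 1.28 for Top2a.

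G1 and S phase cyclins rose in 5 of 6 cases (83.3%, against 25.6% of all genes), and none fell (median 0.89). Ccne1, the E-type cyclin that starts S phase with CDK2, had signals of 818, 812 and 971 on the null arrays, against 327 and 255 on the wild type arrays. No null array came near the wild type values, and Ccne1 rose by 1.48, or 2.79-fold (SE 0.17, adjusted p = 0.000165), with 1.01 at its other probe set. Its paralog Ccne2 did not pass, with 599, 774 and 909 on the null arrays, against 758 and 875 on the wild type arrays. Those values overlap, and the difference was -0.10 (95% interval -0.55 to 0.35).

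The D-type cyclins, which bind CDK4 and CDK6 in response to growth signals, were all higher in null ovaries, by unequal amounts. Ccnd3 had 4307, 3594 and 3546 on the null arrays, against 1989 and 1654 on the wild type arrays. Ccnd1 had 1904, 1887 and 2438 on the null arrays, against 892 and 1158 on the wild type arrays. For both, the lowest null array exceeded the highest wild type array, and they rose by 1.12 (SE 0.15, adjusted p = 0.000364) and 1.06 (SE 0.17, adjusted p = 0.000983); all 3 probe sets of Ccnd1 rose, by 1.06 to 1.39. Ccnd2 had 10623, 10982 and 11404 on the null arrays, against 8717 and 7762 on the wild type arrays. The arrays did not overlap, but the rise of 0.28 (SE 0.10, adjusted p = 0.0359) was small and did not pass without null replicate 2 (adjusted p = 0.0826), null replicate 3 (adjusted p = 0.113) or wild type replicate 3 (adjusted p = 0.206), nor after median centring (0.17), without the brightness filter (adjusted p = 0.0717) or without the variance trend (adjusted p = 0.118). Its 7 probe sets ranged from -0.64 to 1.68, and 3 of them were higher in the fit over all probe sets. The brightest, which represents the gene, was not among those 3 (adjusted p = 0.0993 in that fit). Ccna2, whose cyclin A acts in S phase and G2, had 3254, 3858 and 3219 on the null arrays, against 2173 and 2128 on the wild type arrays. Null arrays were higher throughout and Ccna2 rose by 0.72 (SE 0.12, adjusted p = 0.0014), but its second probe set stood at -0.04, and with probe sets averaged the gene did not pass (0.34, adjusted p = 0.0617).

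**Figure D2:**
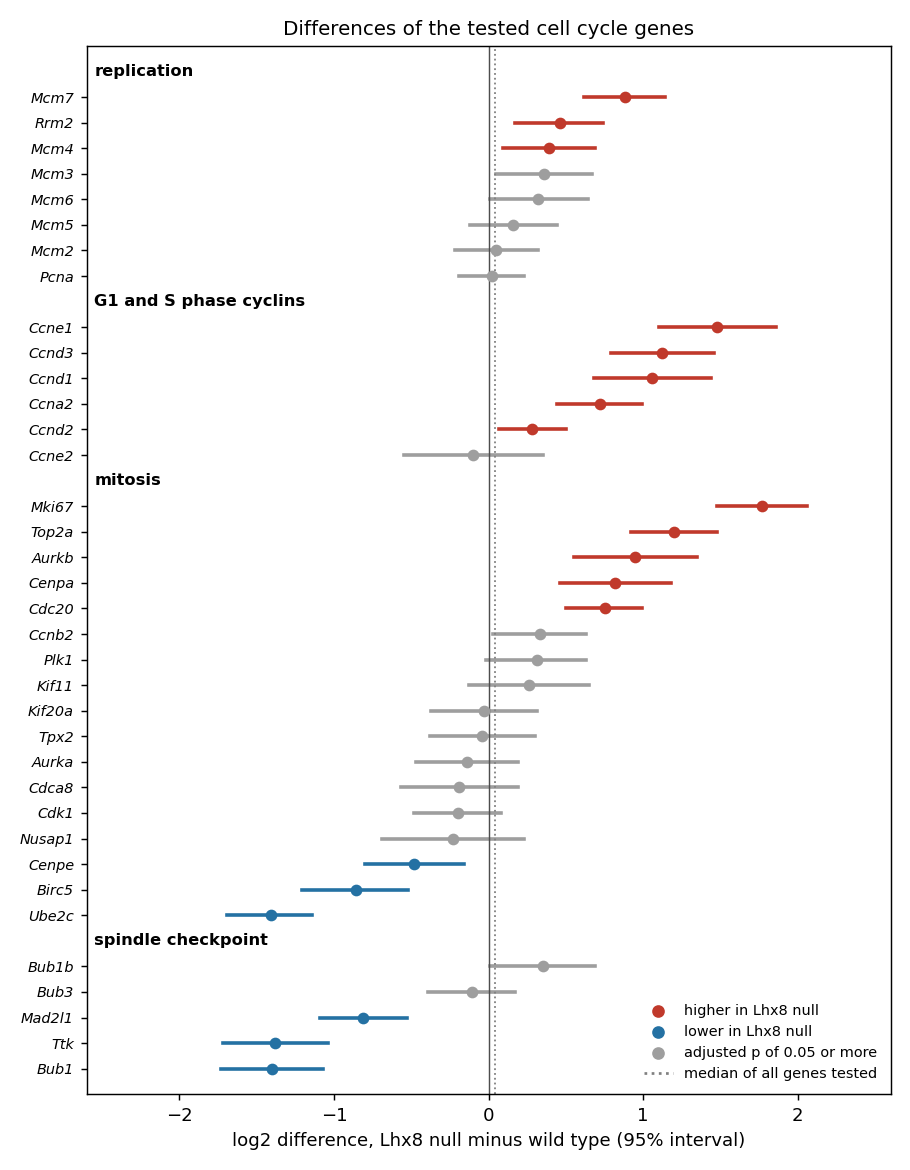
Difference, null minus wild type on the log2 scale, for the 36 tested cell cycle genes by role, as points with 95% intervals from limma. Red genes are higher and blue genes lower in null ovaries at an adjusted p below 0.05, grey genes did not pass, and the dotted line is the median of all genes tested, 0.04; cyclins lie mostly to the right and 3 of 5 checkpoint genes to the left.

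Replication genes were level or modestly higher: 3 of 8 rose (37.5%, against 25.6% of all genes), none fell, and the median was 0.34. Mcm7, a subunit of the MCM helicase, stood out with 8456, 8206 and 7824 on the null arrays, against 4729 and 4036 on the wild type arrays. The 3 null arrays were alike and lay above both wild type arrays, and Mcm7 rose by 0.88 (SE 0.11, adjusted p = 0.000337), with 0.77 to 0.93 at its 3 other probe sets. The other helicase subunits moved less. Mcm4 had 2340.1, 2770 and 2913 on the null arrays, against 2235 and 1991 on the wild type arrays. Its rise of 0.39 (SE 0.13, adjusted p = 0.0365) was near the threshold and did not pass without null replicate 2 (adjusted p = 0.108) or null replicate 3 (adjusted p = 0.127), or when wild type replicate 2 (adjusted p = 0.0606) or wild type replicate 3 (adjusted p = 0.193) was left out, with the deposited scaling (0.33), with probe sets averaged (0.37), without the variance trend (adjusted p = 0.0644) or after median centring (0.09).

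Of the 4 MCM subunits that did not pass, Mcm3 stood at 0.36 (adjusted p = 0.0582), Mcm6 at 0.32 (adjusted p = 0.0835), Mcm5 at 0.16 (adjusted p = 0.323) and Mcm2 at 0.05 (adjusted p = 0.767). Mcm3 passed without null replicate 1 (0.45, adjusted p = 0.013) and Mcm6 without wild type replicate 2 (0.55, adjusted p = 0.0132). At 2 of its other probe sets Mcm3 was higher, by 0.55 and 0.74. Rrm2, the small subunit of ribonucleotide reductase, had 3328, 3736 and 3439 on the null arrays, against 2383 and 2908 on the wild type arrays. It rose by 0.46 (SE 0.13, adjusted p = 0.0154), a call lost without null replicate 2 (adjusted p = 0.0625), without wild type replicate 2 (adjusted p = 0.11) and after median centring (0.16); its 2 other probe sets, at 0.20 and 0.12, did not pass. Pcna, the sliding clamp of the replication fork, had 12408, 13633 and 12061 on the null arrays, against 10452 and 11378 on the wild type arrays. After normalization these arrays overlapped and the difference was 0.02 (95% interval -0.19 to 0.23). Tyms, thymidylate synthase, was too dim to be tested, with 165, 119.6 and 99.9 on the null arrays, against 92.2 and 91.2 on the wild type arrays; without the filter it had 0.16 (adjusted p = 0.733), and a further probe set that also carries the name of a Tyms pseudogene was not used here.

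Spindle checkpoint genes were the group with falls and no rise: 3 of 5 fell (60%, against 22.3% of all genes), with a median of -0.81. Bub1, a kinase that gathers the checkpoint at kinetochores, had 1240.4, 1639 and 1502 on the null arrays, against 3817 and 4108 on the wild type arrays. Both wild type signals were well above every null signal, and Bub1 fell by 1.40 (SE 0.14, adjusted p = 1e-04); its dimmer probe set had -0.59 and did not pass. Ttk, the kinase MPS1 that starts checkpoint signalling, had 744, 880 and 861 on the null arrays, against 2028 and 2476 on the wild type arrays. Again no null array reached the wild type, and Ttk fell by 1.38 (SE 0.15, adjusted p = 0.00014). A second Ttk probe set with signals of at most 135.1 gave 0.58, and with both averaged the gene did not pass (-0.40, adjusted p = 0.169). Mad2l1, whose protein MAD2 binds and blocks CDC20, had 3452, 4139 and 3338 on the null arrays, against 5883 and 6709.6 on the wild type arrays. It fell by 0.81 (SE 0.12, adjusted p = 0.000742) with no overlap between groups.

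The other checkpoint genes did not pass. Bub1b, encoding BUBR1 of the mitotic checkpoint complex, had 889, 1066 and 1094 on the null arrays, against 803 and 814 on the wild type arrays. All null arrays were above wild type, but its difference of 0.35 did not pass (adjusted p = 0.0824); it did without null replicate 1 (0.45, adjusted p = 0.0183), and a second probe set was higher by 0.86. Bub3, the partner of BUB1 and BUBR1, had 5175, 5883 and 4592 on the null arrays, against 5425 and 5755 on the wild type arrays. The groups overlapped, at -0.11 (95% interval -0.39 to 0.17). A dimmer probe set, still above the brightness cutoff, stood at -0.55 with every null array below wild type. It did not pass in the fit over all probe sets (adjusted p = 0.0513).

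Of 17 genes that act in mitosis, 5 rose (29.4%, against 25.6% of all genes), 3 fell (17.6%, against 22.3%) and 9 did not pass, with a median of -0.03. These shares are near those of all genes. Ube2c and Cdc20, whose proteins act with the anaphase-promoting complex, moved in opposite directions. Ube2c, the E2 enzyme of the anaphase-promoting complex, had 2963, 2787 and 2434 on the null arrays, against 6954 and 7236 on the wild type arrays. Its mean was 2728 ± 269 (SD, n = 3) in null ovaries and 7095 ± 200 (SD, n = 2) in wild type ovaries, with no overlap, and it fell by 1.41 (SE 0.12, adjusted p = 3.6e-05). Cdc20, the activator of the same complex, had 5398, 6596 and 5759 on the null arrays, against 3438 and 3656 on the wild type arrays. Here every null array was above wild type, and Cdc20 rose by 0.75 (SE 0.11, adjusted p = 0.000589), with 0.82 at one further probe set and -0.10 at another.

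The Aurora kinases differed from each other. Aurkb, the kinase of the chromosomal passenger complex in dividing somatic cells, had 668, 915 and 754 on the null arrays, against 381 and 389 on the wild type arrays. It rose by 0.95 (SE 0.18, adjusted p = 0.0023), with 0.55 and no call at its other probe set. Aurkc, the family member of germ cells, had 81.7, 59.8 and 64.2 on the null arrays, against 158 and 212 on the wild type arrays, and all null arrays lay below both wild type arrays. It was under the brightness cutoff, a signal of about 150, and in the fit without the filter, where 31% of all genes passed and 15.2% were lower, it fell, at -1.45 (SE 0.29, adjusted p = 0.00628). Aurka, the kinase of spindle poles, had 955, 987 and 896 on the null arrays, against 986 and 1186 on the wild type arrays. These overlap in part, and the difference of -0.14 did not pass (adjusted p = 0.45), although it did after median centring (-0.44, adjusted p = 0.0446).

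Birc5, which encodes survivin, a passenger partner of Aurora B, had 2638, 3345 and 2992 on the null arrays, against 4756 and 6316 on the wild type arrays. The null signals were all lower, and Birc5 fell by 0.86 (SE 0.15, adjusted p = 0.00176). Cdca8, encoding the passenger subunit borealin, had 2212, 2688 and 2516 on the null arrays, against 2428 and 3541 on the wild type arrays. Its groups overlapped, at -0.19 (95% interval -0.57 to 0.19), and all 3 of its probe sets were between -0.24 and -0.08.

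The centromere genes parted too. Cenpa, the histone H3 variant that marks centromeres, had 1788, 2425 and 2062 on the null arrays, against 1097 and 1339 on the wild type arrays. It rose by 0.82 (SE 0.16, adjusted p = 0.0027), without overlap; averaging in its 2 dim probe sets took it to 0.33 (adjusted p = 0.225). Cenpe, a kinetochore motor, had 845, 958 and 820 on the null arrays, against 1236 and 1294 on the wild type arrays. It fell by 0.48 (SE 0.14, adjusted p = 0.0195), a call lost without null replicate 3 (adjusted p = 0.07), wild type replicate 2 (adjusted p = 0.065) or wild type replicate 3 (adjusted p = 0.107), and its dimmer probe set stood at 0.46, and with both averaged the gene did not pass (-0.01, adjusted p = 0.954).

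The central mitotic kinase Cdk1 had 3599.7, 3958 and 3665 on the null arrays, against 3855 and 4880.3 on the wild type arrays. The groups overlapped and the difference of -0.20 did not pass (adjusted p = 0.22), but it did after median centring (-0.46, adjusted p = 0.0365). Its partner Ccnb2, cyclin B2, stood at 0.33 (adjusted p = 0.0696) and the Polo-like kinase gene Plk1 at 0.31 (adjusted p = 0.107), both with every null array above wild type. The spindle motor genes Kif11 and Kif20a had 0.26 (adjusted p = 0.247) and -0.03 (adjusted p = 0.889), and the microtubule-binding protein genes Nusap1 and Tpx2 had -0.23 (adjusted p = 0.379) and -0.04 (adjusted p = 0.849). Kif11 passed without null replicate 1 (0.41, adjusted p = 0.0296), while its 3 probe sets ran from -0.39 to 0.26. Core mitotic genes with a difference near 0 thus stood beside others that rose or fell by more than 1.

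**Figure D3:**
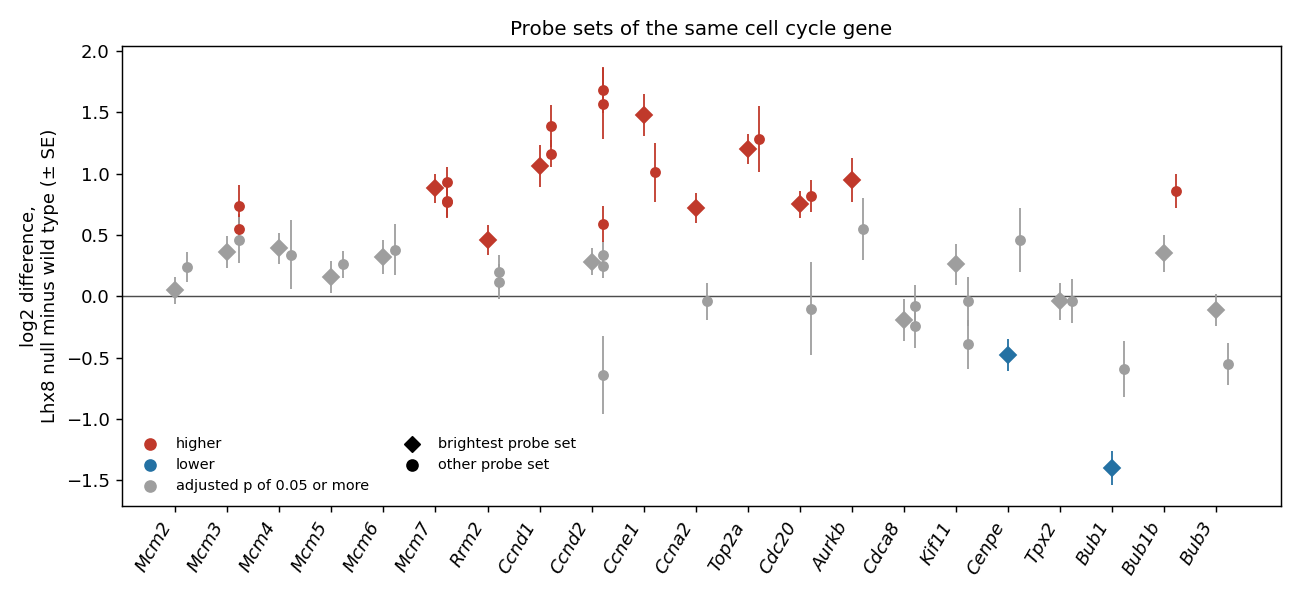
Difference, null minus wild type on the log2 scale with its SE, for each probe set above the brightness cutoff in the 21 cell cycle genes that have more than 1, from the fit over all probe sets. Diamonds are the probe sets used for the gene; Ccnd1, Ccne1, Mcm7 and Top2a are higher at every probe set drawn, and Ccnd2 spreads widest.

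Across all 93 probe sets of these genes, 25 were higher (10.7% of all probe sets were) and 7 lower (10.3% of all probe sets were), and 61 did not pass (21% of all probe sets passed) in a fit adjusted over the 45037 probe sets without a brightness filter. Of the 71 above the cutoff, 25 were higher and 6 lower, and the 22 below it gave 1 call, that of Aurkc. The share of all bright probe sets that passed was not computed, and the shares above include dim ones. Among genes past the brightness filter, 52.8% of the cell cycle genes passed, close to the 47.8% of all genes. No gene had probe sets called in opposite directions. Among the 21 genes with several bright probe sets, all of the bright ones were higher in 4 genes, none passed in 8, and in 9 some passed and others did not. Rrm2, Ccne1, Cdc20, Aurkb and Mcm5 are represented by a probe set whose name ends in x_at, the array maker's mark for probes that can match other transcripts as well.

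Genes that work with these were taken from 5 further lists of the cell cycle. Of 125 tested, 29 were higher (23.2%, against 25.6% of all genes) and 40 lower (32%, against 22.3%), with a median of -0.07. After median centring, which took the median of all genes to -0.18, 17 were higher and 56 lower. In that setting 15.8% of all genes were higher and 31.3% lower. In origin licensing and the replication fork 9 of 41 rose (22%, against 25.6% of all genes) and 14 fell (34.1%, against 22.3%). Mcm8, a helicase relative that acts in meiotic recombination, fell by 1.74, and the origin recognition genes Orc1 and Orc5 by 1.44 and 1.03. Tk1, thymidine kinase, rose by 1.15, Pole2, a DNA polymerase epsilon subunit, by 0.68 and Rrm1, the large subunit of ribonucleotide reductase, by 0.63.

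Further genes of the spindle, kinetochore and cytokinesis fell in 18 of 43 cases (41.9%, against 22.3% of all genes) and rose in 6 (14%, against 25.6%). Kif4, a chromosome-bound motor, had 551, 461 and 408 on the null arrays, against 1884 and 2024 on the wild type arrays, and it fell by 1.99 (SE 0.16, adjusted p = 2.41e-05). The condensin gene Ncapg and the centromere gene Cenpn fell by 1.70 and 1.45. Ncapd2, another condensin gene, had 2418, 2108 and 1919.5 on the null arrays, against 639 and 628 on the wild type arrays. It rose by 1.76 (SE 0.14, adjusted p = 2.87e-05), while Kif23, a cytokinesis motor, and Aspm, of the spindle pole, rose by 0.98 and 0.94. Both directions showed groups without overlap for the genes named here.

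Of 18 E2F and RB family genes 5 rose (27.8%, against 25.6% of all genes) and 4 fell (22.2%, against 22.3%), shares near those of all genes. E2f5, a repressor-class E2F, fell by 2.56 (SE 0.15, adjusted p = 6.53e-06), with 857, 985 and 1142 on the null arrays, against 5581 and 6262 on the wild type arrays. Rb1, the retinoblastoma gene that restrains E2F, fell by 1.55 and Mybl2, a transcription factor of dividing cells, by 1.19. E2f7 and E2f8, the atypical E2Fs, rose by 1.34 and 1.29, and Rbl1, encoding the pocket protein p107, by 0.75. Among other CDKs and their regulators 6 of 18 rose (33.3%, against 25.6% of all genes), led by Skp2, Cdc25b and Cdk4 (1.18, 0.96 and 0.59), and 3 fell (16.7%, against 22.3%), Cks2, Ccnh and Ccnb3 (-0.93, -0.40 and -1.11). Ccnb3 was near the brightness cutoff, with 184, 114 and 177.5 on the null arrays, against 501 and 201 on the wild type arrays. Without the brightness filter it did not pass (adjusted p = 0.0502).

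Of 5 tested CDK inhibitors 3 rose (60%, against 25.6% of all genes) and 1 fell (20%, against 22.3%); of 7 listed, Cdkn2a and Cdkn2b were too dim to be tested. Cdkn1c, which encodes p57, had 11614, 9475 and 10029.9 on the null arrays, against 3158 and 2622 on the wild type arrays. The groups lay far apart, and Cdkn1c rose by 1.80, or 3.48-fold (SE 0.14, adjusted p = 1.88e-05). Cdkn1a, encoding p21, rose by 1.17 (SE 0.24, adjusted p = 0.00344) and Cdkn2c by 0.70 (SE 0.15, adjusted p = 0.00422). Cdkn1b, encoding p27, went the other way, with 1213, 1339.5 and 1306 on the null arrays, against 2746 and 2949 on the wild type arrays; it fell by 1.08 (SE 0.12, adjusted p = 0.00017). The dim Cdkn2a had 33.3, 32.6 and 28.5 on the null arrays, against 104 and 106 on the wild type arrays, and without the brightness filter it fell too, at -1.59 (SE 0.31, adjusted p = 0.00536), while Cdkn2b did not pass (-0.30, adjusted p = 0.758).

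**Figure D4:**
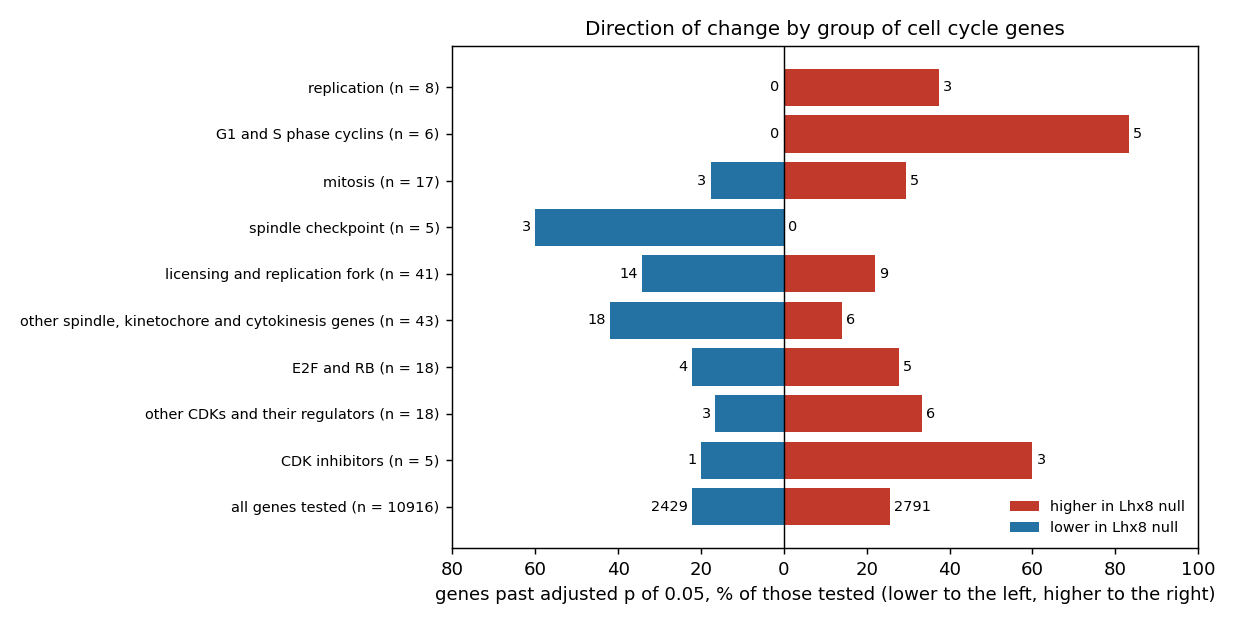
Share of tested genes past an adjusted p of 0.05 in each group of cell cycle genes, with lower in null ovaries to the left and higher to the right, and the number of genes beside each bar. G1 and S phase cyclins extend furthest right (5 of 6) and spindle checkpoint genes furthest left (3 of 5); all genes tested are in the bottom row.

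Markers of the cell types in these pools differed between the same arrays, where 25.6% of all genes tested were higher and 22.3% lower. The sums of signals given below are led by the brightest markers, such as Sycp3 for germ cells (15387 and 15041 on the wild type arrays). All 9 germ cell markers were lower in null ovaries, with summed signals of 6516 to 10066 on null arrays and 50487 to 50523 on wild type arrays; none is listed at 0, and Zp3, an egg coat gene, had 16.3, 24.9 and 21.9 on the null arrays, against 1942 and 4036 on the wild type arrays. Of 7 pregranulosa markers 5 were lower and 1 higher, with sums of 18479 to 20591 on null arrays and 28139.5 to 29899.9 on wild type arrays. All 8 stromal and smooth muscle markers were higher (128969 to 149127 on null arrays and 54496 to 63401 on wild type arrays), as were 6 of 7 macrophage markers (7682 to 8387 on null arrays and 2196 to 2294 on wild type arrays), 4 of 6 endothelial markers (4481 to 5026 on null arrays and 2506 to 2990 on wild type arrays) and all 7 of oviduct and tract epithelium (22038 to 26113 on null arrays and 6057 to 6613 on wild type arrays). Of 2 erythroid markers tested 1 was higher, and the 3 measured had sums of 843 to 3202 on null arrays and 615 to 704 on wild type arrays. In whole ovaries fewer cells of a type and less RNA per cell cannot be told apart, and the part of these markers in the differences of the cell cycle genes was not tested.

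**Figure D5:**
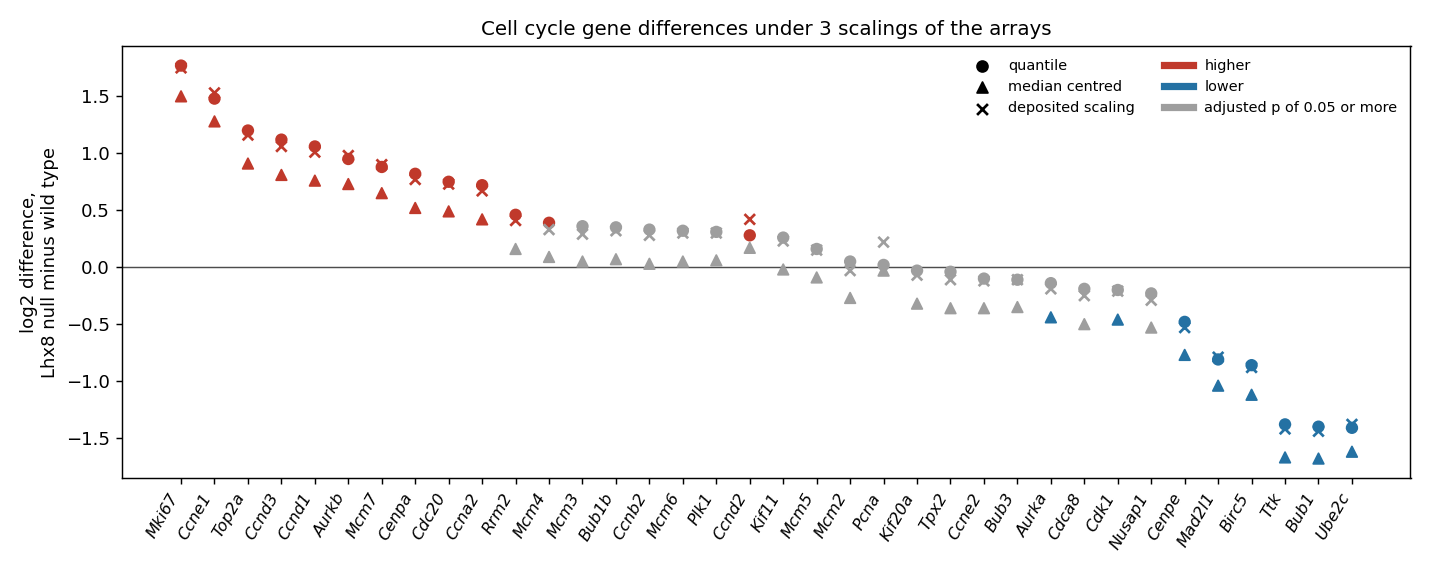
Difference, null minus wild type on the log2 scale, of the 36 tested cell cycle genes with quantile normalised arrays, arrays centred on their medians and arrays as deposited, coloured by call. Median centring lowers each of these genes by about 0.2 to 0.3, except Ccnd2 and Pcna, which it lowers less; the rises from Mki67 to Ccna2 and the falls from Cenpe to Ube2c pass under all 3.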

How the data were processed

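RNA of 3 Lhx8 null and 2 wild type pools was measured, 1 array each, with groups and replicate numbers taken from the sample titles; replicate 1 of the wild type is not analysed here. What the authors deposited is 1 linear intensity per probe set, with a 2% trimmed mean of 500 on every array, so the values were already scaled. GCOS is named for wild type arrays in the submitters' processing notes; other steps are not given in the sources used here, nor are array batches or detection calls. No array copied another (64 to 120 of 45101 values equal between pairs). The p-values measure the spread between pools.

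The 64 control probe sets were left out. Of the rest 34945 had 1 gene symbol, 932 several and 9160 none, and 34741 of those with 1 symbol matched the GRCm38.p6 gene table, which changed 0 symbols. Intensities were put on the log2(signal + 16) scale and quantile normalised. The brightest probe set stood for each gene, and of 18193 genes the dimmest 40% (below 7.37, a signal of about 150) were left out, leaving 10916. Differences were tested with limma 3.58.1 in R 4.3.3 (eBayes with a trend, two-sided, Benjamini-Hochberg over all genes tested, threshold 0.05). The test was checked on simulated data in which few genes changed, as many up as down. In these arrays 47.8% of genes passed, so that check does not cover the scaling of data with such wide change. The members and lists were chosen with earlier results of these data known. All members are named, and of each further list the 3 genes with the smallest p in each direction. List genes without a probe set of 1 symbol were not analysed here. Promoter windows come from RefSeq. Alternatives covered scaling, the added constant (1 or 64), the filter, how probe sets stand for a gene, the variance trend, the replicate number as a block and each array left out; those for all probe sets were chosen after seeing the data. Figures were drawn with matplotlib 3.10.9.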

Additional observations from a re-analysis of the deposited data

How the results depend on the processing

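Of the 19 cell cycle genes called, 12 kept call and direction in all 14 alternative settings, and 0 reversed; of the 17 not past, 6 passed in at least 1. With 1 null array left out, 10 to 16 of the 36 cell cycle genes were higher, beside 20.9% to 27.2% of all genes. In these fits 5 to 6 were lower, beside 18.9% to 23.4% of all genes. Without wild type replicate 2 or 3 the median of the cell cycle genes was 0.24 or 0.21. With probe sets averaged 9 of 37 were higher and 5 lower, where 20.1% of all genes were higher and 21.1% lower. There 37.8% of the cell cycle genes passed, fewer than the 41.2% of all genes. Over all genes, 1730 were higher and 31.3% lower after median centring, where 33.6% of calls were higher against 53.5% under quantile normalization; with 1 array left out 1800 to 2964 were higher and 1616 to 2557 lower, the lowest without wild type replicate 3. Of the other cell cycle genes 17 were higher and 56 lower after median centring, where 15.8% of all genes were higher and 31.3% lower. Of the members' probe sets 15 were higher without a trend in the variance, and with 1 array left out 4 to 8 were lower, the lowest again without wild type replicate 3. The cause of these shifts was not tested. Null and wild type arrays share only the replicate numbers 2 and 3, whose deviations from their group means correlated at -0.13 and 0.10. With 2 wild type arrays their deviations mirror each other, so these are not separate checks and cannot decide whether pools were paired. The main fit did not take the numbers as pairs. In the replicate block null replicate 1, without a wild type partner, adds nothing to the differences. They equal those with that array left out, so the block is no separate check of them. With the block 17 cell cycle genes were higher and 6 lower, where 28.1% of all genes were higher and 23.7% lower. Where an arm was left with 1 array, it was assumed to vary like the other group. Signals near background, as for Tyms and Aurkc, limit what can be seen.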

Other observations

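Genes of single complexes were compared after their values were seen. The 6 tested subunits of the origin recognition complex were all lower in null ovaries, where 22.3% of all genes tested were lower. Their differences were -1.44 (Orc1), -0.85 (Orc2), -0.63 (Orc3), -0.82 (Orc4), -1.03 (Orc5) and -0.43 (Orc6, adjusted p = 0.0459). Orc6 did not pass without the brightness filter (adjusted p = 0.0586). None of the 6 subunits of the MCM helicase that this complex helps to load was called lower. For the origin recognition genes only the brightest probe set was examined. Orc1, the subunit that fell furthest, had 256, 221 and 242 on the null arrays, against 619 and 676 on the wild type arrays. In null ovaries its 3 signals lay below both wild type values.

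Condensin I genes spread over a wide range. Ncapd2 was at 1.76, Ncaph at 0.01 (adjusted p = 0.96), Smc2 at -0.22 (adjusted p = 0.145), Smc4 at -0.59 and Ncapg at -1.70. Of the chromosomal passenger genes, Aurkb rose by 0.95, Incenp, the scaffold subunit, fell by 0.44 (adjusted p = 0.0322) and Birc5 fell by 0.86, with Cdca8 at -0.19. The differences between subunits were not tested.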
